A study of Mus musculus with 9 samples.

Results

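The data described here are the messenger RNA levels of 10 axon guidance genes in the embryonic mouse cortex. The genes are the secreted ligands Slit1, Slit2, Slit3 and Ntn1 and the receptors Robo1, Robo2, Dcc, Unc5d, Nrp1 and Plxna2. They were taken by name, by a rule that used no measured value, from a list drawn up with earlier results of these data known. Each symbol matched 1 Ensembl identifier among the 57010 genes of the table. All 10 were tested, as were 13680 genes in all, those for which each embryo had more than 10 reads.

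RNA-seq was performed on cortices microdissected from single embryos at E12.5, and the 9 embryos comprised 3 controls (Ctrl), 3 with loss of Cnot3 (Cnot3 cKO) and 3 with loss of Cnot3 and Trp53 (Cnot3;Trp53 dcKO). Ctrl embryos carry the label WT, with no other allele stated. In cKO embryos a floxed Cnot3 allele is removed by Emx1-Cre, which acts in RGCs (radial glia) of the dorsal telencephalon and in the cells they give rise to. In dcKO embryos a floxed Trp53 is removed as well. Blood vessels, meninges and other cells that never expressed Emx1 keep both genes. CNOT3 is a subunit of the CCR4-NOT complex, which shortens poly(A) tails of mRNAs, and Trp53 encodes p53. The comparison asks what loss of Cnot3 changes, and whether this persists when p53 is also lost.

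Slit proteins are secreted repellents that bind Robo receptors on growing axons and migrating cells. Netrin-1, the product of Ntn1, attracts through DCC and repels through UNC5 receptors. Neuropilin-1 and plexins form receptors for secreted class 3 semaphorins, and neuropilin-1 also binds VEGF in blood vessels. In the cortex these systems guide corticofugal and commissural axons, tangential migration and the exit of young neurons from the germinal zones.

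The targeted genes were examined first. Cnot3 was at 117.3, 107 and 98.2 CPM (read counts scaled to library size with TMM factors) in Ctrl replicates 1 to 3. It was at 14.96, 17.3 and 14.6 CPM in cKO, and at 7.33, 48.2 and 19.0 CPM in dcKO. Trp53 was at 15.1 and 20.6 CPM in dcKO replicates 1 and 3 and at 110.4 CPM in replicate 2, against 215 to 254 CPM in Ctrl and 164 to 167 CPM in cKO. Thus dcKO replicate 2 retained more of both transcripts than the other dcKO embryos, and the dcKO fold changes of the 10 genes are given with and without it. It also held 96 reads of Gsx2 and 88 of Dlx2, markers of the subpallium, where no other embryo had a read of Gsx2 or more than 8 of Dlx2. Libraries held 21193798 to 45073349 counted reads. The dorsal markers Emx1, Emx2, Pax6 and Lhx2 were present in every embryo, and of 5 markers of floor plate and hypothalamus Shh had 0 reads in every embryo. Foxa1, Foxa2 and Sim1 of that list had at most 21 reads in any embryo, with 8 and 13 reads of Foxa2 in dcKO replicates 1 and 2, and 21 and 16 reads of Foxa1 in cKO replicate 3 and dcKO replicate 1. In bulk tissue, fewer cells of a type and less RNA per cell cannot be told apart.

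In control cortex the 10 genes spanned a wide range of expression. Levels were compared per kb of exon, since longer transcripts collect more reads. Per kb of all annotated exons, Plxna2 was at 9.04 ± 0.99 and Dcc at 8.46 ± 0.74 CPM per kb (SD, n = 3). They were followed by Slit1 (5.78 ± 2.04), Nrp1 (4.67 ± 0.50), Slit2 (2.97 ± 0.19), Robo2 (2.82 ± 0.36) and Robo1 (2.33 ± 0.34). Unc5d, Ntn1 and Slit3 were the lowest, at 0.53 ± 0.12, 0.44 ± 0.15 and 0.26 ± 0.11 CPM per kb. Neighbours in this order overlapped over the 3 embryos with 2 exceptions, a gap between Nrp1 and Slit2 and a gap between Robo1 and Unc5d. The upper part of the order depended on the length used. Slit2 has 25.4 kb of annotated exon but a 7.79 kb transcript, and per kb of 1 transcript it moved up to 9.70 ± 0.60 CPM per kb, with Nrp1 at 12.7 ± 1.4. The lowest 3 genes were the same with either length.

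**Figure D1:**
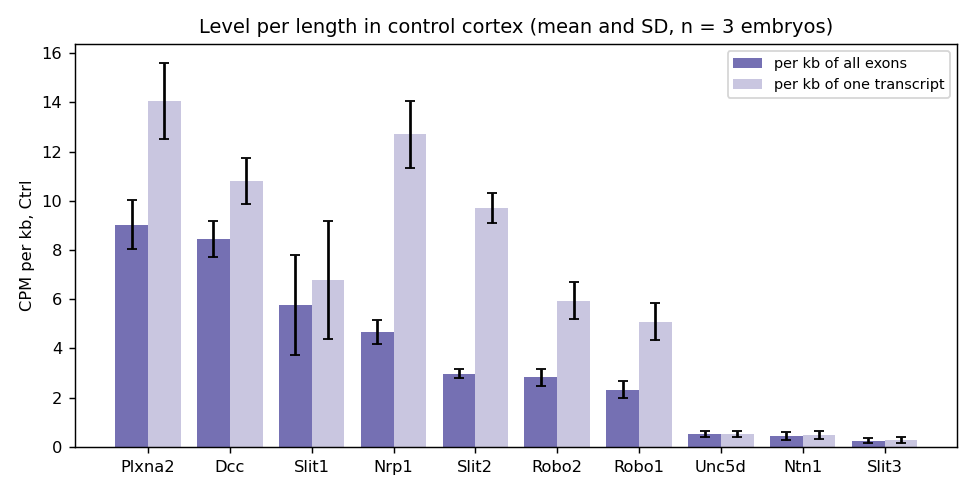
Expression of the 10 guidance genes in Ctrl cortex in CPM per kb, with bars at the mean and error bars at the SD over 3 embryos. Dark bars divide by the length of all annotated exons and light bars by the length of 1 transcript, and Unc5d, Ntn1 and Slit3 are below 1 CPM per kb with either.

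No guidance gene among the 10 passed the threshold in any comparison in the main edgeR fit. This fit took all 9 embryos and the genes above 10 reads in each, with TMM factors and no block or GC correction. Calls required a Benjamini-Hochberg adjusted p under 0.05 together with a log2 fold change beyond 1 in either direction. In cKO against Ctrl edgeR called 0 of the 10, where 0.0146% of all tested genes were called in either direction. In dcKO against Ctrl it called 0 of the 10, with 0.00% of tested genes called. The deleted genes were not called either. Cnot3 had log2 fold changes of -2.78 in cKO (edgeR adjusted p = 0.0509) and -2.11 in dcKO (edgeR adjusted p = 0.0529). Trp53 had -2.27 in dcKO (edgeR adjusted p = 0.0605). A missing call in this fit is therefore no sign that a gene is unchanged. At an unadjusted p under 0.05, Nrp1 and Slit2 were lower in cKO and none was higher, where 11.7% of tested genes were lower and 15.3% higher. In dcKO, Nrp1, Robo1 and Slit1 were lower at that limit and none was higher, where 11.2% of tested genes were lower and 18.0% higher. The median log2 fold change over the 10 genes was -0.36 in cKO and -0.24 in dcKO, and over all tested genes it was 0.01 and 0.11. The median over the 10 genes in dcKO was -0.74 without dcKO replicate 2, and then edgeR called Nrp1 and Plxna2 lower, where 2.58% of tested genes were.

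DESeq2, the test the study used, gave more calls over all genes. It called 0 of the 10 in cKO, where 3.87% of tested genes were called lower and 4.94% higher. In dcKO it called Slit1 as lower, 1 of the 10, where 3.79% of tested genes were called lower and 4.66% higher. Nrp1 and Robo1 also had adjusted p-values under 0.05 there, with folds under the limit, so that 3 of the 10 were lower at that limit where 7.40% of tested genes were. With dcKO replicate 2 left out, DESeq2 called Nrp1 and Plxna2 lower in dcKO and no longer Slit1, where 4.49% of tested genes were called lower.

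Embryos of the genotypes separated for some genes. Every cKO embryo was below every Ctrl embryo for Slit1, Slit2, Dcc and Nrp1, 4 of the 10, where 28.0% of tested genes showed this. Slit3 alone was above in every cKO embryo, where 29.2% of tested genes were. In dcKO, every embryo was below every Ctrl embryo for Robo1 and Nrp1, where 11.2% of tested genes were, and Ntn1 was above in every embryo, where 15.6% were. Nrp1 was thus the gene of the 10 whose embryos were below Ctrl in both mutants. How many of all tested genes were below in both was not counted, and both comparisons use the same Ctrl embryos. For each of these separated genes an exact permutation test (two-sided) gave p = 0.1, the smallest it allows with 3 embryos in each group.

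**Figure D2:**
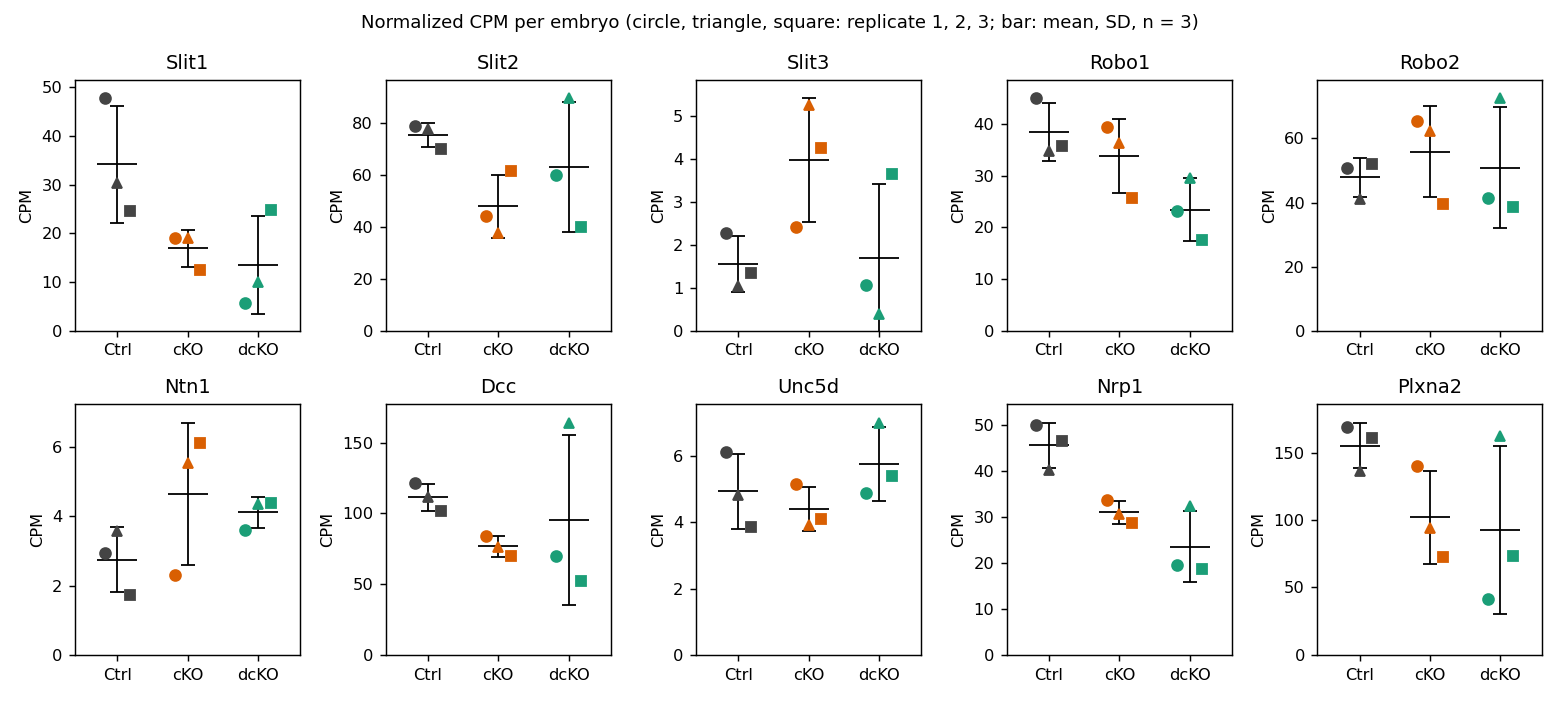
Normalized CPM of each guidance gene in each embryo, with circles, triangles and squares for replicates 1, 2 and 3 of Ctrl, cKO and dcKO, and with the mean and SD of 3 embryos. Nrp1 is below Ctrl in all 6 mutant embryos, while dcKO replicate 2 is the highest of the 9 embryos for Slit2, Robo2, Dcc and Unc5d.

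Slit1, a repellent ligand, had the lowest log2 fold change of the 10 genes in both mutants over all embryos, whereas in dcKO without replicate 2 Plxna2 and Nrp1 were lower. Slit1 was at 47.7, 30.2 and 24.6 CPM in Ctrl replicates 1 to 3. It was at 19.1, 19.1 and 12.48 CPM in cKO. It was at 5.69, 10.01 and 24.8 CPM in dcKO. All cKO embryos were below Ctrl, and in dcKO replicates 1 and 2 were the lowest of all while replicate 3 matched Ctrl replicate 3. The log2 fold change was -1.02 (SE 0.49, edgeR adjusted p = 0.207) in cKO and -1.35 (SE 0.49, adjusted p = 0.109) in dcKO. With DESeq2 the dcKO value was -1.38 (SE 0.48, adjusted p = 0.0309). In edgeR it was -1.18 without dcKO replicate 2. Without dcKO replicate 3 it was -2.12 and was called, where 15.2% of tested genes were called lower, and over all embryos left out in turn it ran from -2.12 to -0.98.

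Some markers, chosen after their values were seen, had a similar order to Slit1 across the dcKO embryos. Emx1, a transcription factor of the dorsal telencephalon, was at 119.95, 69.4 and 43.8 CPM in Ctrl, 20.5, 20.4 and 23.7 CPM in cKO, and 7.94, 17.7 and 80.9 CPM in dcKO. Tubb3, a neuronal tubulin, was at 114, 223 and 624 CPM in dcKO replicates 1 to 3 and at 481 to 769 CPM in Ctrl. Both markers, like Slit1, were far higher in dcKO replicate 3 than in the other dcKO embryos. The part of these markers in the Slit1 result was not tested.

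Slit2 embryos separated from Ctrl in cKO and overlapped it in dcKO. It was at 78.8, 77.7 and 70.1 CPM in Ctrl, with little spread. It was at 44.4, 37.8 and 61.5 CPM in cKO. It was at 59.996, 89.6 and 39.9 CPM in dcKO. The cKO embryos were all below Ctrl, whereas dcKO replicate 2 was above all controls. Its log2 fold change was -0.66 in cKO (SE 0.29, edgeR adjusted p = 0.176) and -0.26 in dcKO (95% interval -0.82 to 0.30). Without dcKO replicate 2 the dcKO value was -0.60.

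Slit3 was the least abundant ligand, with 15 to 141 reads per embryo. It was at 2.28, 1.04 and 1.33 CPM in Ctrl, 2.41, 5.24 and 4.26 CPM in cKO, and 1.05, 0.38 and 3.64 CPM in dcKO. The lowest cKO embryo was barely above the highest Ctrl embryo, and dcKO spread on both sides of Ctrl. Fitted log2 fold changes were 1.35 in cKO (SE 0.70, edgeR adjusted p = 0.246) and 0.10 in dcKO (95% interval -1.29 to 1.48). The direction in dcKO was not stable. It was -1.12 without dcKO replicate 3 and 0.57 without dcKO replicate 2.

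Ntn1 was at 2.94, 3.57 and 1.73 CPM in Ctrl. It was at 2.30, 5.54 and 6.11 CPM in cKO and at 3.61, 4.34 and 4.39 CPM in dcKO. The dcKO embryos were all above Ctrl, the lowest of them by a small margin, while cKO replicate 1 was within the Ctrl range. For Ntn1 the log2 fold change was 0.76 in cKO (SE 0.43, edgeR adjusted p = 0.279) and 0.59 in dcKO (SE 0.43, adjusted p = 0.380), or 0.54 without dcKO replicate 2. It had 48 to 170 reads per embryo, and neither difference could be told from the spread between embryos.

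Beside Ntn1 and Slit3, the embryos differed in markers of the cortical hem and choroid plexus, structures at the medial edge of the cortex. The summed level of the 6 markers Wnt3a, Wnt2b, Rspo1, Lmx1a, Ttr and Otx2 was 5.55 to 29.7 CPM in Ctrl, 44.4 to 165 CPM in cKO and 43.4 to 164 CPM in dcKO. Ttr, a transport protein of the choroid plexus, had 0 reads in every Ctrl embryo and 134 to 2050 reads in the mutants. The 2 cKO embryos with the most Ntn1 and Slit3 were also those with the largest sums in cKO. The embryo with the lowest sum, Ctrl replicate 3, had the lowest Ntn1. In dcKO the order differed, since replicate 1 had the largest sum, the lowest Ntn1 and Slit3 at 1.05 CPM, within the Ctrl range. The marker sum was thus above Ctrl in every dcKO embryo, while Slit3 was not. The part of hem or choroid plexus tissue in these 2 ligands was not tested.

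**Figure D3:**
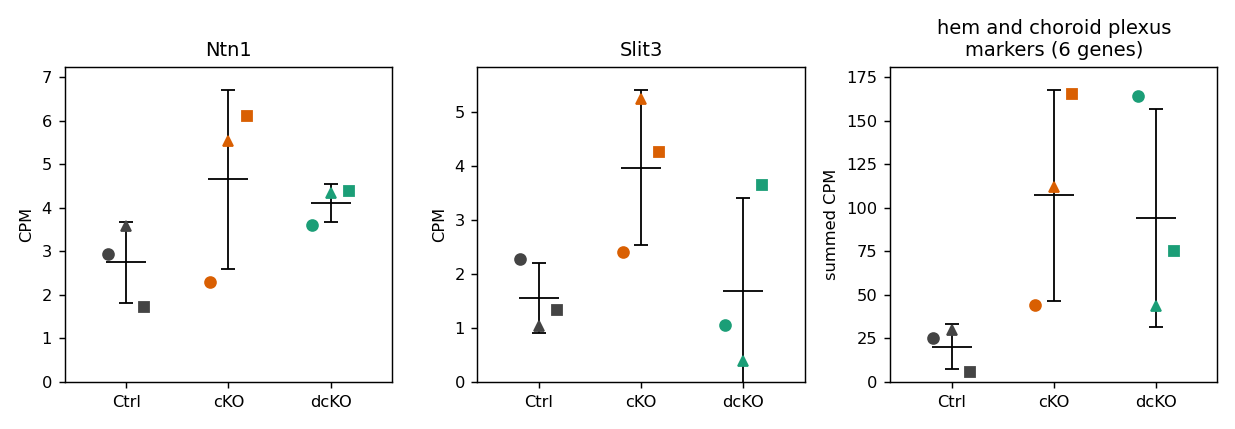
CPM of Ntn1 and Slit3 and the summed CPM of 6 hem and choroid plexus markers in each embryo, with symbols for replicates and the mean and SD of 3 embryos per genotype. The marker sum is above Ctrl in all 6 mutant embryos, while Ntn1 is above Ctrl in every dcKO embryo and Slit3 in every cKO embryo.

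The Slit receptors differed from each other. Robo1 was at 44.97, 34.7 and 35.7 CPM in Ctrl, 39.4, 36.3 and 25.7 CPM in cKO, and 23.2, 29.6 and 17.5 CPM in dcKO. The cKO embryos overlapped Ctrl, and the dcKO embryos were all below it. The log2 fold change was -0.19 in cKO (95% interval -0.69 to 0.31). In dcKO it was -0.72 (SE 0.26, edgeR adjusted p = 0.105, DESeq2 adjusted p = 0.0480). Without dcKO replicate 2 it was -0.92 (edgeR adjusted p = 0.0341), under the fold limit. Robo1 was also lower in dcKO than in cKO by estimate, with a log2 fold change of -0.53 (SE 0.26, edgeR adjusted p = 0.889), so a difference between the mutants was not shown.

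Robo2 was at 50.8, 41.0 and 52.0 CPM in Ctrl. It was at 65.6, 62.4 and 39.5 CPM in cKO and at 41.5, 72.5 and 38.7 CPM in dcKO. Embryos of the 3 genotypes overlapped. Robo2 had a log2 fold change of 0.22 in cKO (95% interval -0.33 to 0.77) and 0.09 in dcKO (95% interval -0.47 to 0.64). The latter was -0.26 without dcKO replicate 2, the embryo with the most Robo2.

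Slit2 and Slit3 carry in their introns the hairpins of miR-218, a microRNA whose known targets include Robo1 and Robo2. Its mature sequence and the matching sites are shown because they tie ligand and receptor genes of this pathway together. The hairpin mir-218-1 lies in Slit2 at chr5:48223942-48224051 and mir-218-2 in Slit3 at chr11:35616816-35616925, both on the plus strand of GRCm38.p6, with positions and sequence from RefSeq. Both yield the same miR-218-5p, written 5′ to 3′ with the seed, bases 2 to 8, in capitals.
miR-218-5p: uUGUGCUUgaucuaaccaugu
The complement of the seed, AAGCACA, was searched on the sense strand in the longest 3′ UTR that GENCODE M21 gives each gene on GRCm38. Robo1 held 1 such match, Robo2 held 2 and Slit2 held 2, shown with the match in capitals and read on the strand of the gene.
Robo1, chr16:73045334-73045355, plus strand: ttttttggttttaaAAGCACAa
Robo2, chr16:73895358-73895379, minus strand: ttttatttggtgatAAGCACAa
Robo2, chr16:73893032-73893053, minus strand: gtcacggcagacccAAGCACAg
Slit2, chr5:48304529-48304550, plus strand: gccaatactagcagAAGCACAt
Slit2, chr5:48306832-48306853, plus strand: gataattattagcaAAGCACAt
The other 7 genes had no match in their 3′ UTR. Of 12069 tested genes with a 3′ UTR, 17.9% held at least 1 match, and of those with a 3′ UTR of at least 1000 bases, 25.2% did. A match is a description of sequence and not a shown binding site. Poly(A) libraries do not measure the mature microRNA. In cKO the genes with matches had log2 fold changes of -0.19 (Robo1), 0.22 (Robo2) and -0.66 (Slit2). In dcKO they had -0.72, 0.09 and -0.26, and -0.92, -0.26 and -0.60 without dcKO replicate 2. Genes with no match then ran from -1.44 (Plxna2) to 0.57 (Slit3). The part of miR-218 in these values was not tested.

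Of the netrin receptors, Dcc is expressed by cortical neurons that extend axons. Dcc was at 121.1, 111 and 102 CPM in Ctrl. It was at 83.9, 76.3 and 69.7 CPM in cKO and at 69.6, 164 and 52.1 CPM in dcKO. All cKO embryos and dcKO replicates 1 and 3 were below every Ctrl embryo, and dcKO replicate 2 was above all others. Dcc had a log2 fold change of -0.54 in cKO (SE 0.35, edgeR adjusted p = 0.354) and -0.23 in dcKO (SE 0.35, adjusted p = 0.690). Without dcKO replicate 2 it was -0.54 in cKO (adjusted p = 0.0394) and -0.88 in dcKO (adjusted p = 0.0124), both under the fold limit.

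The neuronal marker Dcx, a microtubule protein of young neurons, was at 385 CPM in dcKO replicate 2, against 87.6 and 91.3 CPM in the other dcKO embryos and 180.1 to 185 CPM in Ctrl. The sum over 9 markers of newborn neurons was 1481 to 1946 CPM in Ctrl, 1108 to 1566 CPM in cKO and 946 to 1898 CPM in dcKO, and the highest dcKO value was that of replicate 2. Among the dcKO embryos replicate 2 was the highest for 6 of the 9 markers, while Tubb3, Neurod2 and Neurod6 were highest in replicate 3. The part of neuron number in the levels of Dcc, Robo2 and Plxna2 was not tested.

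Unc5d, a repulsive netrin receptor known from cells of the subventricular zone, was at 6.12, 4.81 and 3.86 CPM in Ctrl, 5.14, 3.90 and 4.11 CPM in cKO, and 4.89, 6.999 and 5.38 CPM in dcKO. The genotypes overlapped. The log2 fold change was -0.17 in cKO (95% interval -0.78 to 0.44) and 0.22 in dcKO (95% interval -0.38 to 0.83), or 0.05 without dcKO replicate 2. It had 97 to 274 reads per embryo.

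Nrp1 had the smallest p-value of the 10 genes in both mutants. Nrp1 was at 50.1, 40.4 and 46.7 CPM in Ctrl. It was at 33.8, 30.7 and 28.8 CPM in cKO. It was at 19.7, 32.5 and 18.6 CPM in dcKO. All 6 mutant embryos were below all 3 controls. The cKO estimate was a log2 fold change of -0.56 (SE 0.24, edgeR adjusted p = 0.174). In dcKO it was -0.95 (SE 0.24, edgeR adjusted p = 0.0544, DESeq2 adjusted p = 0.00501). Without dcKO replicate 2 the dcKO value was -1.26 (edgeR adjusted p = 0.00465) and Nrp1 was called. When each embryo was left out in turn it stayed between -1.26 and -0.81 in dcKO and between -0.64 and -0.49 in cKO.

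Nrp1 is expressed by blood vessels as well as by neurons, and some markers of vessels were also low in dcKO. The sum over 8 endothelial and mural genes was 254 to 332 CPM in Ctrl, 238 to 341 CPM in cKO and 168 to 185 CPM in dcKO. The dcKO embryos were thus below Ctrl for the vessel markers, while the cKO embryos overlapped Ctrl for these markers but not for Nrp1. The sum over 8 markers of meninges and mesenchyme was 783 to 863 CPM in Ctrl, 455 to 700.1 CPM in cKO and 325 to 520.5 CPM in dcKO, below Ctrl in both mutants. This sum was carried by the fibrillar collagens Col1a1, Col1a2 and Col3a1. The other genes of that list did not all follow it in cKO. Mean levels in Ctrl and cKO were 53.8 and 61.4 CPM for Lum, 26.7 and 26.7 CPM for Dcn, 9.52 and 11.9 CPM for Foxc1, 1.30 and 2.49 CPM for Twist1, and 2.55 and 1.64 CPM for Prrx2. The part of vessels and meninges in the Nrp1 result was not tested.

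Plxna2, a plexin that acts with neuropilins and also binds class 6 semaphorins, was at 169, 136 and 161 CPM in Ctrl. It was at 140.1, 93.8 and 72.7 CPM in cKO and at 41.5, 162 and 73.7 CPM in dcKO. In cKO replicate 1 and dcKO replicate 2 it was within the Ctrl range, and in the other 4 mutant embryos it was below. Log2 fold changes were -0.60 in cKO (SE 0.42, edgeR adjusted p = 0.388) and -0.75 in dcKO (SE 0.42, adjusted p = 0.264). Without dcKO replicate 2 the dcKO value was -1.44 (adjusted p = 0.0183), past both limits.

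**Figure D4:**
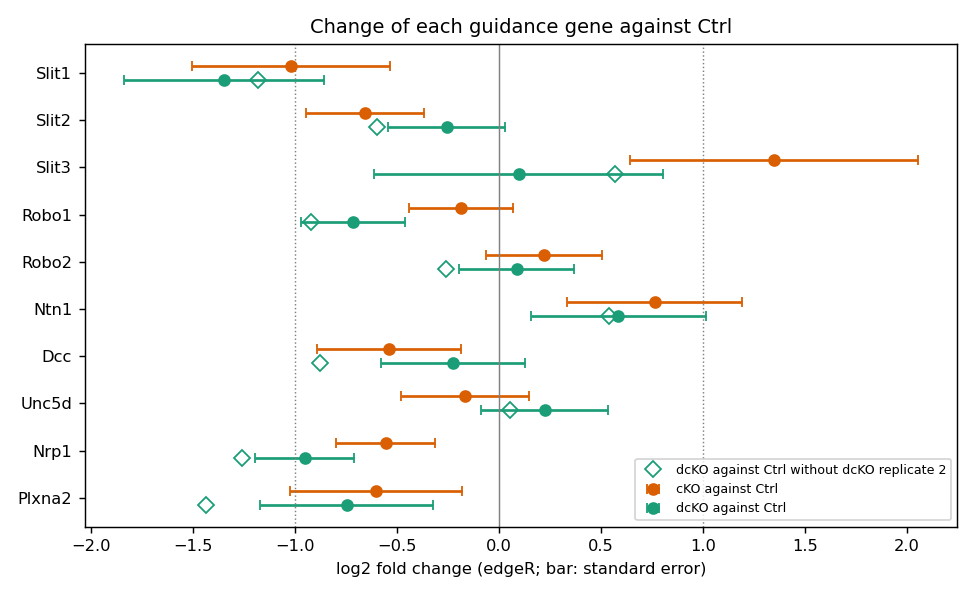
Log2 fold change of each guidance gene in cKO (orange) and dcKO (green) against Ctrl, with filled points and standard errors from edgeR on all 9 embryos and dotted lines at a log2 fold change of 1 in each direction. Open diamonds give dcKO without dcKO replicate 2, where Plxna2 is at -1.44 and Nrp1 at -1.26.

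Sample codes of some embryos share a collection number, whose meaning is not stated, which pairs cKO replicate 2 with Ctrl replicate 1, cKO replicate 3 with Ctrl replicate 2 and dcKO replicate 3 with Ctrl replicate 3. Within these pairs, the log2 difference of mutant and control was -0.71, -0.49 and -1.32 for Nrp1, the same direction in all 3. It was -1.32, -1.28 and 0.01 for Slit1, so the dcKO pair showed no difference there. It was -0.31, -0.43 and -1.03 for Robo1, -0.85, -0.90 and -1.13 for Plxna2, -0.67, -0.68 and -0.96 for Dcc, and -1.06, -0.34 and -0.81 for Slit2. It was above 0 in all 3 pairs for Ntn1 (0.91, 0.77 and 1.33) and Slit3 (1.19, 2.01 and 1.44). Robo2 (0.30, -0.05 and -0.43) and Unc5d (-0.65, -0.23 and 0.48) had both signs. Each pair is 1 embryo against 1, with no test. Adding the collection number to the edgeR fit of the 9 embryos as a block leaves 1 residual degree of freedom. In cKO, which has 2 pairs, Slit1 (-1.30) and Slit3 (1.58) were then past both limits, where 14.5% of tested genes were. In dcKO, Robo1, Nrp1 and Plxna2 were past them, where 11.9% of tested genes were, but dcKO is there 1 embryo, assumed to vary like the cKO pairs, and the fitted values are those of its pair, so no test of dcKO is drawn from this fit.

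The 2 mutants were also compared with each other, to see whether loss of p53 alters these genes when Cnot3 is already lost. With edgeR 0 of the 10 were called, where 0.0146% of tested genes were. At an unadjusted p under 0.05, 0 of the 10 were lower or higher, where 2.38% of tested genes were lower and 2.05% higher. DESeq2 called 0 of the 10, where it called 0.351% of tested genes lower and 0.0292% higher. No gene of the 10 had all dcKO embryos below all cKO embryos, seen in 3.63% of tested genes, or above, seen in 2.62%. The log2 fold changes ranged from -1.25 for Slit3 (95% interval -2.62 to 0.12) to 0.40 for Slit2 (95% interval -0.16 to 0.96), and the smallest edgeR adjusted p was 0.889. EdgeR also called 0 of the 10 without dcKO replicate 2, where 0.0288% of tested genes were called, and the log2 fold changes ran from -0.83 for Plxna2 to 0.23 for Unc5d. Without dcKO replicate 3, edgeR called Slit1 (-1.10, adjusted p = 0.0412) and Slit3 (-2.46, adjusted p = 0.0188) as lower in dcKO, where 6.42% of tested genes were. No collection number is shared by a cKO and a dcKO embryo. In the fit with this block the value for Slit1 was 1.31, of opposite sign, and rests on dcKO replicate 3 alone.

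Other genes of the same systems were counted in 4 lists. None of their genes was called in the main edgeR fit, in part with adjusted p-values just above the limit, and DESeq2 called genes of every list in both mutants. Over all tested genes DESeq2 called 3.87% lower and 4.94% higher in cKO, and 3.79% lower and 4.66% higher in dcKO, the shares beside which the counts of each list stand. Of 17 other genes of the Slit and Robo pathway, all tested, DESeq2 called 3 lower and 0 higher in cKO, and 4 lower and 1 higher in dcKO. Robo3, a divergent Robo receptor that steers commissural axons, was at 18.7 to 27.8 CPM in Ctrl, 4.93 to 6.80 CPM in cKO and 2.36 to 9.99 CPM in dcKO. Its log2 fold change was -2.04 (SE 0.47, edgeR adjusted p = 0.0514, DESeq2 adjusted p = 0.000609) in cKO and -1.73 in dcKO. Gpc1, a heparan sulfate proteoglycan that binds Slits, had log2 fold changes of -1.86 and -1.63, and Nck1, an adaptor protein, had 0.69 and 1.05. So Robo3 was much lower relative to Ctrl than Robo1 or Robo2 by estimate, though the difference between these genes was not tested.

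Of 17 other netrin pathway genes, 15 were tested, and DESeq2 called 1 lower and 1 higher in cKO and 2 lower and 0 higher in dcKO. Unc5b, a netrin receptor also found on vessels, was at 29.7 to 37.0 CPM in Ctrl, 11.5 to 17.3 CPM in cKO and 8.995 to 21.7 CPM in dcKO. Its log2 fold change was -1.28 (SE 0.33, edgeR adjusted p = 0.0575, DESeq2 adjusted p = 0.00319) in cKO and -1.26 in dcKO. Unc5c, another repulsive netrin receptor, was at 3.62 to 4.36 CPM in Ctrl and 8.79 to 12.4 CPM in cKO, with a log2 fold change of 1.40 (SE 0.39, edgeR adjusted p = 0.0663, DESeq2 adjusted p = 0.00830), and at 2.76 to 8.13 CPM in dcKO. Draxin, a secreted repellent that binds DCC and netrin, had log2 fold changes of -0.79 in cKO and -1.08 in dcKO, the latter with an edgeR adjusted p of 0.0507 and a DESeq2 adjusted p of 0.00139. Receptors of 1 ligand thus had estimates in both directions in cKO, with Unc5b and Dcc below 0 and Unc5c above.

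Of 42 other neuropilin, plexin and semaphorin genes, 39 were tested, and DESeq2 called 6 lower and 3 higher in cKO and 10 lower and 3 higher in dcKO. Their median log2 fold change was -0.52 in cKO and -0.67 in dcKO. Plxna1, a paralog of Plxna2, was at 132 to 208 CPM in Ctrl, 64.7 to 70.3 CPM in cKO and 41.7 to 94.9 CPM in dcKO. Its log2 fold change was -1.34 (SE 0.28, edgeR adjusted p = 0.0509, DESeq2 adjusted p = 0.000788) in cKO and -1.37 in dcKO. Plxnb1, a receptor for class 4 semaphorins, had -1.22 and -1.10. Plxnc1, the receptor of Sema7a, had 0.71 and 1.13, the latter with a DESeq2 adjusted p of 0.00210. The 3 genes called higher in cKO, named after their values were seen, were Sema3c, Sema3d and Sema4a, and their log2 fold changes were 1.15, 1.46 and 1.81. Sema3c and Sema3d encode secreted semaphorins whose receptors contain neuropilins, and the cKO estimate for Nrp1 was below 0.

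Of 22 ephrin and Eph receptor genes, 18 were tested, and DESeq2 called 3 lower and 0 higher in cKO and 2 lower and 1 higher in dcKO. Ephb2, a receptor of B-type ephrins, was at 225 to 295 CPM in Ctrl, 67.2 to 81.7 CPM in cKO and 42.2 to 123 CPM in dcKO, with log2 fold changes of -1.77 (SE 0.33, edgeR adjusted p = 0.0509) and -1.52. Ephb3 and Ephb4, receptors of the same class, had -1.40 and -0.93 in cKO and -1.72 and -0.89 in dcKO. Over the 4 lists the median log2 fold changes spanned -0.52 to -0.07 for cKO and -0.67 to -0.19 for dcKO, and those of the 10 genes lay within these ranges. When dcKO replicate 2 was left out, DESeq2 called in dcKO 3 lower and 1 higher of the Slit and Robo list, 2 lower and 0 higher of the netrin list, 8 lower and 3 higher of the semaphorin list, and 4 lower and 1 higher of the ephrin list, of which 19 genes were then tested. In that fit 4.49% of all tested genes were called lower and 12.2% in either direction.

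**Figure D5:**
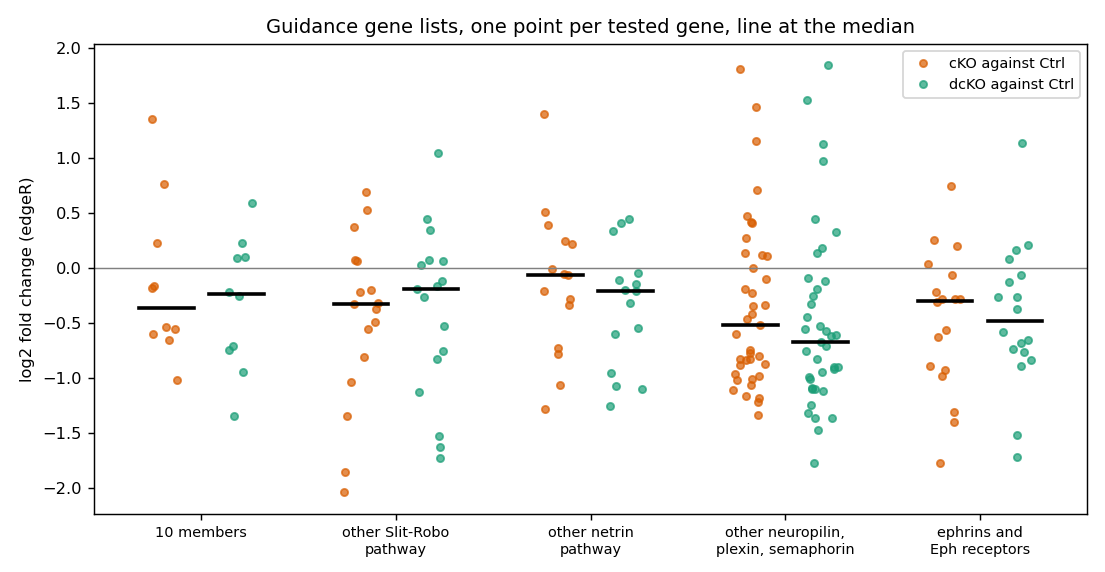
Log2 fold changes from edgeR in cKO (orange) and dcKO (green) against Ctrl for the 10 guidance genes and for 4 further lists, with 1 point per tested gene and a line at the median. All medians are below 0, and each list has genes on both sides of 0.

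For 9 of the guidance genes, the tested gene with the most similar log2 CPM over the 9 embryos was sought, as a description over embryos that include both mutants. Dcc was most similar to Trp53inp2 (Pearson r = 0.991). Nrp1 was most similar to Prep (r = 0.991), Slit2 to Ccdc34 (r = 0.981), Slit3 to Ghdc (r = 0.969) and Plxna2 to Camsap1 (r = 0.969). Robo2 was most similar to Ank2 (r = 0.955), which encodes an ankyrin, and Robo1 to Wscd2 (r = 0.947). Unc5d was most similar to Neurog2 (r = 0.932), a transcription factor of neurogenic progenitors. Ntn1 was most similar to Rspo1 (r = 0.881), one of the hem markers above. A maximum over 13680 genes and 9 embryos is high by construction.

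The 10 genes share features that were not used to choose them. In GENCODE M21 all have a coding length and a gene span above the medians of 1446 bases and 26.6 kb over tested coding genes. Coding lengths ran from 1812 bases in Ntn1 to 5682 in Plxna2, and spans from 143 kb in Slit1 to 1097 kb in Dcc. GC content at codon position 3 ranged from 46.0% in Robo2 to 82.5% in Ntn1, and 6 of the 10 were below the median of 60.4%. The 3 Slit genes differed in this, with 50.8% in Slit2, 73.1% in Slit1 and 72.8% in Slit3. Their log2 fold changes in cKO were -0.66 (SE 0.29) for Slit2, -1.02 (SE 0.49) for Slit1 and 1.35 (SE 0.70) for Slit3. The part of GC content in these values was not tested.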

How the data were processed

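The authors made stranded poly(A) libraries, 1 per embryo, trimmed adapters with Cutadapt, used STAR for alignment to mm39 and featureCounts for counts per gene (versions not given in the sources used here). They deposited raw counts, whole numbers with no normalization or filter. Embryos were assigned to genotype by their labels. Libraries held 21193798 to 45073349 counted reads.

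From these counts, CPM were computed with TMM factors, and genes above 10 reads in each embryo were tested in R 4.3.3 with edgeR 4.0.16 (quasi-likelihood test, 1 model of all 9 embryos, no covariates, Benjamini-Hochberg adjustment over 13680 genes). DESeq2 1.42.0 and limma 3.58.1 (voom with quality weights) were alternatives, beside other scaling factors and filters, fewer embryos, GC correction (loess span 0.3) and blocks for replicate or collection number. DESeq2 without each embryo and DESeq2 with the replicate block were chosen after seeing the data. An exact permutation test of 3 against 3 was added for single genes, in Python 3.11.15 with NumPy 2.4.6, pandas 2.3.3 and SciPy 1.17.1. The edgeR fit was tested on simulated data, in which it recovered most of the genes that had been changed. The simulation gave all genes the same spread and large changes, with no deviating embryo. It is therefore no measure of what the fit can detect in these embryos.

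Lengths, spans and 3′ UTRs came from GENCODE M21 on GRCm38, which matched 52081 identifiers; no mm39 annotation was used here. Same-numbered embryos did not deviate together, so replicate numbers were not taken as pairs. The guidance genes, the 4 further lists and the marker lists given above were chosen with earlier results of these data known. Named genes were the 10 guidance genes, the 2 genes of each further list with the smallest edgeR p-value in each mutant against Ctrl, and the gene most similar to each guidance gene, of which 1 is not reported here.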

Additional observations from a re-analysis of the deposited data

How the results depend on the processing

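Of 600 refits of single guidance genes, 546 kept direction and side of the threshold, 20 passed the threshold in the same direction and 34 changed sign, of which 1 was past the threshold (Slit1 in dcKO against cKO with the collection block). Counts of called guidance genes are given with the share of all tested genes called in either direction. In cKO they numbered 0 in edgeR, 1 in limma voom (13.7%), 2 with only the 2 genotypes compared (13.1%), 2 with the collection block (14.5%, median log2 fold change -0.52) and, with an embryo left out, 0 to 1 in edgeR (0.00% to 10.7%) and 0 to 2 in DESeq2 (3.72% to 11.8%). In dcKO they numbered 0 in edgeR, 1 in DESeq2 (8.46%), 3 in limma voom (26.8%), 1 with no filter (2.58%), 3 with the collection block (11.9%), 1 with GC correction (1.70%) and, with an embryo left out, 0 to 2 in edgeR (0.00% to 23.6%) and 0 to 2 in DESeq2 (3.01% to 23.9%), where the median ran from -0.77 to -0.13 (-0.74 in edgeR without dcKO replicate 2). In dcKO against cKO they numbered 1 with the collection block (11.6%) and, with an embryo left out, 0 to 2 in edgeR (0.00% to 9.01%) and 0 to 2 in DESeq2 (0.116% to 10.5%). The calls were of Slit1, Slit3, Nrp1, Plxna2 or Robo1. The collection block leaves 1 residual degree of freedom, and its dcKO values rest on 1 embryo, so that its counts for dcKO are no test.

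The replicate numbers shared a number only (mean correlation of same-numbered embryos -0.17, above 0.1 in 1 of 9 pairs). With the replicate block edgeR called 0 of them in each comparison and DESeq2 called 2 in dcKO (7.51%). The replicate block turned Slit3 in dcKO to -0.20.

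Signs changed mostly for genes near 0. Robo2 was -0.0543 in cKO with GC correction and -0.0767 with GC correction and replicate block. In dcKO Robo2 was -0.0657 in limma voom, -0.0042 with filterByExpr, -0.0203 with no filter, -0.43 with the collection block, -0.39 with GC correction and -0.40 with GC correction and replicate block. Slit3 was -0.36 in limma voom, Slit1 0.0076 with the collection block, and Unc5d -0.18 with GC correction and -0.16 with the replicate block added. In dcKO against cKO, limma voom gave 0.0558 for Ntn1 and -0.0876 for Dcc, the collection block gave 1.31 for Slit1, -0.12 for Slit2, 0.50 for Ntn1 and -0.29 for Dcc, and GC correction gave 0.23 for Ntn1, or 0.20 with the replicate block. With an embryo left out, Unc5d in cKO ran from -0.32 to 0.0167. In dcKO Robo2 ran from -0.26 to 0.25, Slit3 from -1.12 to 0.57 and Dcc from -0.88 to 0.0685. In dcKO against cKO Plxna2 ran from -0.83 to 0.21, Ntn1 from -0.50 to 0.0249, Slit1 from -1.10 to 0.0376, Dcc from -0.33 to 0.61 and Robo2 from -0.48 to 0.0295. The cause was not tested. Upper-quartile factors moved the median of all genes in cKO from 0.01 to 0.12 and turned no guidance gene. Slit3, with the fewest reads, had the largest standard error of the 10 genes.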

Other observations

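Robo4 and Plxnd1, both chosen after their values were seen, were called lower in dcKO by DESeq2. Robo4, a Robo receptor of endothelial cells, was at 7.79, 14.2 and 10.5 CPM in Ctrl, 9.52, 9.48 and 6.94 CPM in cKO, and 2.69, 2.35 and 6.29 CPM in dcKO. Every dcKO embryo was below every other embryo. Its log2 fold change was -1.53 in dcKO (SE 0.42, edgeR adjusted p = 0.0610, DESeq2 adjusted p = 0.00434) and -0.32 in cKO (SE 0.41, edgeR adjusted p = 0.644). The direct comparison of dcKO with cKO gave -1.20 (SE 0.42, edgeR adjusted p = 0.889). Plxnd1, an endothelial receptor of semaphorins, had log2 fold changes of -1.77 in dcKO (SE 0.41, edgeR adjusted p = 0.0511, DESeq2 adjusted p = 0.000874) and -0.84 in cKO (SE 0.40, edgeR adjusted p = 0.211).

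Nrp2, the other neuropilin, also chosen after its values were seen, was at 70.0 to 84.6 CPM in Ctrl and at 44.2, 52.2 and 55.6 CPM in dcKO, with log2 fold changes of -0.62 in dcKO (SE 0.19, edgeR adjusted p = 0.0780, DESeq2 adjusted p = 0.0270) and 0.11 in cKO.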
